A study of Mus musculus with 4 samples.

Results

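Individual long-term hematopoietic stem cells (LT-HSCs) with open chromatin counts at the Wwtr1 locus were compared with cells from the same table that had none. Wwtr1 encodes TAZ, a transcriptional coactivator. A total of 1309 cells were compared, of 1454 cells in the table and 2715 cells in both tables of the series. They were chosen by the readout itself: every cell at or above the 10th percentile of counts per cell was thinned without replacement to that same depth, and a cell was placed among the cells with Wwtr1 counts when at least 1 thinned count fell in a peak overlapping the Wwtr1 gene body or the 5000 bp upstream of it. The Wwtr1 counts that selected the cells are therefore given as a description, and results come from the rest of the genome.

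Single-cell ATAC-seq (scATAC-seq), in which the Tn5 transposase cuts open chromatin and each cut is assigned to a cell by its barcode, was performed on LT-HSCs of C57BL/6JRj mice. The table analyzed here was named by the labels of CLCA3A1high and CLCA3A1low LT-HSCs, both from old mice of 22 to 28 months, which were sorted with an antibody to the surface protein CLCA3A1. The other samples of the series were LT-HSCs of young mice (3 to 4 months) and of old mice (22 to 28 months), and each sample pooled 2500 cells from each of 4 mice, so that 10000 cells were sorted. Each group was represented by 1 sample. No genetic alteration or treatment is named for any of these mice. The cells of the table carried 1 of 2 barcode suffixes, called barcode set 1 and barcode set 2 below. No label pairs a suffix with a sorted group, so the sets are unlabelled and a difference between them is not a difference between CLCA3A1high and CLCA3A1low cells. Every comparison was made between cells of 1 set and then given for the other set. The sets may hold differently sorted cells, so a value that differs between them is not a failed repeat of 1 condition. Cells of 1 sample are not replicates, so no test was run and no p-value is given.

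TAZ and its paralog YAP do not bind DNA themselves but act on target genes through the TEAD transcription factors. The Hippo kinase cascade, with MST and LATS kinases at its core, phosphorylates both coactivators and keeps them out of the nucleus. LT-HSCs sit at the top of the blood hierarchy, and PU.1, an ETS factor encoded by Spi1, is a main regulator of their myeloid and lymphoid output. A count at a locus reports accessibility of its chromatin in 1 nucleus, not expression of the gene.

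The Wwtr1 gene (ENSMUSG00000027803.14) lies on the minus strand of chromosome 3 at positions 57455649 to 57575910 of GRCm38, and 16 peaks overlapped it. The sequences below are shown as examples of the DNA behind the counts, from the promoter peak, which was hit most often, and from intronic peaks. All read 5′ to 3′ on the strand of the gene, and capitals mark a match to 1 of 7 motif words searched on both strands. The promoter sequence is that of RefSeq (GRCm38.p6), the 250 bases before the annotated start, chr3:57575911-57576160. Its match is to a TEAD word and ends 130 bases before the start.
Wwtr1 promoter: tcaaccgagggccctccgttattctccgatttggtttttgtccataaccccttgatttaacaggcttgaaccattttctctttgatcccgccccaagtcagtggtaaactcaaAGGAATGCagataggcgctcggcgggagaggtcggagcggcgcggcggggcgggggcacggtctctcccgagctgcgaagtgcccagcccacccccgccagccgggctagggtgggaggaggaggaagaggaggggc
The next windows of 200 bases were read from GRCm38 and all lie in introns. Peak 3 (chr3:57555704-57555903) holds an AP-1 word, peak 15 (chr3:57471119-57471318) a TEAD word, and the central 200 bases of peak 10 (chr3:57512367-57512566) hold none of the 7 words.
Wwtr1 peak 3: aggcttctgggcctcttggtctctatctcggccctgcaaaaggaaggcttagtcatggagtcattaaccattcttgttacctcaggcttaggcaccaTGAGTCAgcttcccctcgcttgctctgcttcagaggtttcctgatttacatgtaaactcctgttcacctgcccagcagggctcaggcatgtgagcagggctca
Wwtr1 peak 10: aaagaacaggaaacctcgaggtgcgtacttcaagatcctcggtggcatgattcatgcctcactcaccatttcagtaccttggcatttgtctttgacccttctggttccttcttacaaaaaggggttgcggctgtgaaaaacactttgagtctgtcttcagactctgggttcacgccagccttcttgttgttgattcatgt
Wwtr1 peak 15: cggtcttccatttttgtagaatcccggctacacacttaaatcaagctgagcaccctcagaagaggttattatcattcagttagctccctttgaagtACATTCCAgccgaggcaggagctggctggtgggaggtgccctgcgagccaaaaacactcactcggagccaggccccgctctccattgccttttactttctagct
A match to a word is a description of these letters and not a binding site. The TEAD word, written as ACATTCCA, ACATTCCT, GCATTCCA or GCATTCCT, was found in 10.9% of all peaks, the RUNX word (TGTGGTTA or TGTGGTTT) in 12.2% and the AP-1 word (TGACTCA or TGAGTCA) in 15.9%.

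In barcode set 1, 315 of 749 cells had Wwtr1 counts, a share of 42.1% (exact 95% binomial interval 38.5 to 45.7%). In barcode set 2, 189 of 560 cells did, a share of 33.8% (29.8 to 37.8%). Most of these cells were placed there by very few counts. In set 1, 175 cells had 1 thinned count, 93 had 2 and 47 had 3 or more, up to 11. In set 2 the numbers were 109, 55 and 25, up to 7. The cells just inside the threshold thus had 1 count and those just outside had none, and the deepest cell left out had 4871 counts, below a depth threshold that the shallowest kept cell met exactly. Of the cells without Wwtr1 counts, 147 in set 1 (33.9%) and 89 in set 2 (24.0%) had Wwtr1 counts before thinning that were lost in the draw. When the draw was repeated with another seed, 235 of the 315 cells of set 1 (74.6%) and 137 of the 189 cells of set 2 (72.5%) had Wwtr1 counts again. Cells without Wwtr1 counts were therefore not shown to have a closed locus. All intervals here cover counting error only. Those of shares of cells take each cell as hit or not hit. Those of ratios of summed counts are too narrow, because 88.7% of the nonzero values were even, so that counts come mostly in pairs.

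The promoter peak (chr3:57574044-57576997) was the most frequently hit. It had a thinned count in 18.3% of the cells of set 1 (15.6 to 21.2%) and in 12.9% of those of set 2 (10.2 to 15.9%). The intronic peak 4 (chr3:57550226-57551168), centered 25213 bp downstream of the start, followed with 6.28% (4.65 to 8.26%) and 8.04% (5.92 to 10.6%). Peak 10 (chr3:57511874-57513059) was hit in 5.07% and 5.18% of cells, and peak 15 (chr3:57470149-57471622) in 3.87% and 3.93%. The intervals of the sets overlapped at each of these 4 peaks. Peak 3 (chr3:57555544-57556172), centered 20052 bp downstream, was hit in 4.27% of the cells of set 1 (2.94 to 5.98%) and in 1.43% of set 2 (0.619 to 2.80%), and there the intervals did not overlap. The other peaks were each hit in 0.179 to 2.40% of cells, and their intervals overlapped between the sets. The intervals of the share of cells with any Wwtr1 count, given above, did not overlap either. A difference between the sets is thus not particular to peak 3, and these are the counts that selected the cells.

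**Figure D1:**
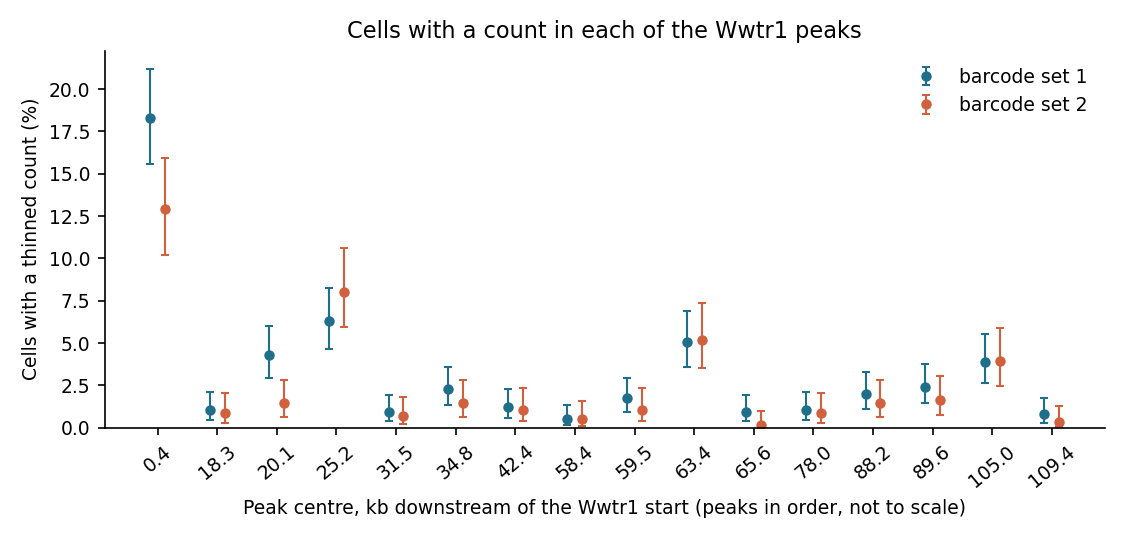
Percent of cells with at least 1 thinned count in each of the 16 Wwtr1 peaks (y axis) against the distance of the peak centre from the gene start in kb (x axis, peaks in order and not to scale), for barcode set 1 (749 cells) and set 2 (560 cells). Points are shares and bars exact 95% binomial intervals. The promoter peak reached 18.3% and 12.9% and the intronic peak 4 reached 6.28% and 8.04%.

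Whether hits in different peaks of the locus gathered in the same cells was not resolved. Of the cells with Wwtr1 counts in set 1, 100 had them in the promoter peak only, 178 in other peaks only and 37 in both. In set 2 these numbers were 55, 117 and 17. A single peak was hit in 247 and 149 cells. Splitting the cells by the promoter peak leaves the other 15 peaks free of the split: they were hit in 27.0% (19.8 to 35.3%) of the 137 promoter-positive cells of set 1 and in 29.1% (25.5 to 32.9%) of the 612 promoter-negative cells. In set 2 the shares were 23.6% (14.4 to 35.1%) of 72 cells and 24.0% (20.3 to 28.0%) of 488 cells. CPM is counts divided by the total over all peaks outside the locus and multiplied by 1e6. For the other peaks of the locus, the total left out the promoter peak alone. Their log2 ratio of CPM, promoter-positive over promoter-negative cells, was -0.28 (-0.74 to 0.15) in set 1 and 0.040 (-0.60 to 0.63) in set 2. At 9798 counts per cell, 2 times the depth, the log2 ratios were 0.27 (-0.0052 to 0.54) and 0.16 (-0.27 to 0.58). With another seed they were 0.17 (-0.22 to 0.55) and 0.54 (-0.068 to 1.10), and with all counts of the same cells 0.0090 (-0.21 to 0.22) and 0.31 (-0.0090 to 0.61). Each of these intervals included 0, and the intervals of the shallower draw leave room for one of over 1.5-fold in either direction in set 2 and downward in set 1.

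Before thinning, cells with Wwtr1 counts were slightly deeper, with medians of 14802 against 13434 counts in set 1 and 14727 against 14145 in set 2. At equal depth, they had counts in slightly more peaks, with medians of 3666 (quartiles 3385 to 3883) against 3562 (3194 to 3853) in set 1 and 3669 (3344 to 3875) against 3572 (3285 to 3842) in set 2. The quartile ranges overlapped widely in both sets. The share of counts in promoter peaks, those that overlap a window reaching 1000 bp to each side of an annotated protein-coding transcript start, was 53.2% in cells with and 53.7% in cells without Wwtr1 counts in set 1, and 52.4% against 54.1% in set 2. The direction was the same in both sets, and the differences were -0.50 and -1.7 percentage points.

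Across the genome, 12543 gene loci (gene body plus 5000 bp upstream, at least 100 thinned counts in each set, Wwtr1 peaks left out) were compared, with a pseudocount of 1 CPM on the log2 scale. In set 1, 101 loci (0.805%) were at least 1.5-fold higher in cells with Wwtr1 counts and 130 (1.04%) at least 1.5-fold lower. In set 2, 175 (1.40%) were higher and 418 (3.33%) lower. Only 6 loci (0.0478%) were past this fold and higher in both sets, and 6 (0.0478%) past it and lower in both. The log2 ratio of a locus in 1 set gave almost no information on its ratio in the other: the same sign was seen for 6333 loci (50.5%), and across the 12543 loci Pearson's r was 0.015 and Spearman's rho 0.0089. Loci are not independent replicates, and neighboring loci can share peaks. The median log2 ratio of all loci was -0.011 in set 1 and -0.034 in set 2.

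**Figure D2:**
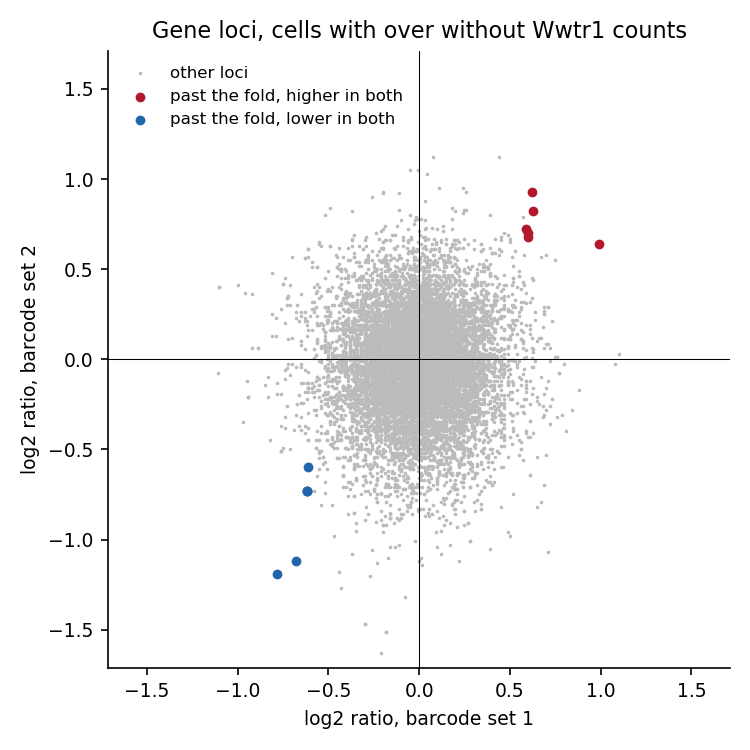
Log2 ratio of CPM between cells with and without Wwtr1 counts for each of the 12543 gene loci in barcode set 1 (x axis) and set 2 (y axis), with a pseudocount of 1 CPM. Each point is a locus; red and blue points are the 6 loci past the 1.5-fold threshold and higher in both sets and the 6 lower in both, and the cloud has no slope (Pearson's r = 0.015).

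Of the 5 protein-coding loci that were higher in both sets, Anxa4 (chr6:86736840-86793584), which encodes a calcium-dependent phospholipid-binding annexin, ranked first by the smaller of its 2 ratios. Its thinned counts were 92 in the cells with Wwtr1 counts and 63 in those without in set 1 (59.6 against 29.6 CPM), and 45 against 56 in set 2 (48.6 against 30.8 CPM). Its log2 ratio was 0.99 in set 1 and 0.64 in set 2, with lower interval bounds of 0.53 and 0.059. Clnk, which encodes an adaptor of immunoreceptor signaling, gave 0.63 and 0.82, and Tnxb, which encodes the matrix protein tenascin XB, gave 0.60 and 0.70. Stxbp3, a regulator of SNARE-dependent vesicle fusion, gave 0.62 and 0.93, and Fam241a gave 0.60 and 0.68. Both Stxbp3 (chr3:108793176-108840526) and Fam241a (chr3:127869058-127896324) lie on chromosome 3. The locus left unnamed among the 6 is not protein-coding.

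Among the loci that were lower in both sets, Zfp397, a zinc finger gene, had counts of 34 against 82 in set 1 and 18 against 83 in set 2, with log2 ratios of -0.78 (-1.43 to -0.21) and -1.19 (-2.05 to -0.48). Arap3, a GTPase-activating protein that shares peaks with Fchsd1, gave -0.68 and -1.12. Apba3 and Mrpl54 share all their 3 peaks with Mir3057, a microRNA gene and the lower locus that is not protein-coding. These 3 loci are thus 1 region, and each gave -0.62 and -0.73. Hsf4, a heat shock transcription factor gene that shares peaks with Tradd, Fbxl8 and Nol3, gave -0.61 and -0.60. Neither group of loci was recovered in a second draw. With another thinning seed, 0 of the 6 higher loci and 0 of the 6 lower loci were again past the fold in both sets, and the log2 ratio of Anxa4 was -0.17 in set 1. With all counts of the same cells, 1 of the 6 higher and 0 of the 6 lower loci were past it.

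Genes of the TAZ pathway did not share 1 direction, and several that had the same sign in both sets lost it with another draw or depth. The TEAD factors and coactivators list had 9 members, of which 8 had peaks and 5 enough counts. Within it, Tead1 had counts of 134 against 135 in set 1 (86.9 against 63.5 CPM) and 73 against 90 in set 2 (78.9 against 49.5 CPM). It was hit in 27.9% against 21.0% of cells in set 1 and in 24.3% against 18.1% in set 2. Its log2 ratios were 0.45 (0.10 to 0.81) and 0.66 (0.21 to 1.13), higher in cells with Wwtr1 counts in both sets, and only the value of set 2 was past the fold. At 9798 counts per cell, in the 553 and 422 cells deep enough, the log2 ratios of Tead1 were -0.0040 and -0.28. Tead2 gave 0.019 and -0.14, Tead3 0.19 and -0.35, and Tead4 0.28 and -0.20, so each of these 3 had opposite signs in the sets. Yap1 had too few counts to be ranked, with 13 against 46 in set 1 and 8 against 30 in set 2, and its log2 ratios were -1.26 (-2.37 to -0.45) and -0.86 (-2.27 to 0.23). With another seed they were -1.84 and 0.74. Summed over the peaks of the list, the log2 ratio was 0.025 (-0.10 to 0.15) in set 1 and -0.16 (-0.31 to -0.0047) in set 2.

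Of the 22 Hippo kinases and regulators, 19 were ranked and 0 were past the fold in both sets, against 0.0478% of all ranked loci in each direction. In set 1, 1 of the 19 was past it and lower, against 1.04% of all ranked loci, and in set 2, 1 of the 19, against 3.33%. In set 1 this was Lats1, a kinase that phosphorylates TAZ, which had counts of 45 against 100 and a log2 ratio of -0.67 (-1.23 to -0.17). In set 2 Lats1 had 41 against 65 counts and gave 0.30 (-0.29 to 0.89). In set 2 it was Wwc1, an upstream scaffold of the pathway, with 19 against 82 counts and a log2 ratio of -1.10 (-1.94 to -0.40), and Wwc1 gave -0.17 (-0.70 to 0.34) in set 1. Lats2 gave 0.060 and -0.10, and Amotl2, an angiomotin that holds YAP and TAZ in the cytoplasm, gave -0.26 and 0.36. Of the ranked members, 3 were above 0 in both sets and 7 below 0 in both, while 50.5% of all ranked loci had the same sign. The list as a whole gave -0.039 (-0.11 to 0.032) and -0.030 (-0.12 to 0.060).

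The list of 23 YAP and TAZ target genes had 22 with peaks, 13 ranked and 0 past the fold in both sets. Of the ranked members, 6 were above 0 in both sets and 2 below, while 50.5% of all ranked loci had the same sign. With so few members, this is no result about the list. Summed over its 168 peaks, the log2 ratio was 0.049 (-0.024 to 0.12) in set 1 and 0.11 (0.019 to 0.21) in set 2, and the latter was -0.0037 with another thinning seed. Ccn2, a matricellular protein gene often used as a readout of YAP and TAZ, had counts below the minimum: 50 against 37 in set 1 and 32 against 42 in set 2, with log2 ratios of 0.86 (0.26 to 1.55) and 0.56 (-0.13 to 1.28). Ccn1 gave 0.16 (-0.28 to 0.61) and 0.027 (-0.55 to 0.59). Clca3a1 had only 27 against 50 counts in set 1 and 13 against 14 in set 2, and its log2 ratios had opposite signs, -0.41 (-1.16 to 0.28) and 0.79 (-0.34 to 2.06). Clu gave -0.034 and -0.061. Ccn1, Clca3a1 and F3, another member, lie on chromosome 3, where the split itself favors a higher ratio, as given below. The part of this in their values and in that of the list was not tested.

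Stem cell loci were open in cells of both kinds. Mecom, a transcription factor gene required for stem cell maintenance with 52 peaks, was hit in 78.1% of cells with and 76.5% of cells without Wwtr1 counts in set 1, and in set 2 it had 334 against 605 counts (361 against 333 CPM). Its log2 ratios were -0.0030 (-0.16 to 0.15) and 0.12 (-0.081 to 0.31). Mecom lies on chromosome 3, where the split itself favors a higher ratio, as given below. The part of this in the values of Mecom and of the stem cell list was not tested. Hlf, a transcription factor gene that marks HSCs, had 195 against 201 counts in set 1 and 107 against 167 in set 2, with log2 ratios of 0.42 (0.13 to 0.71) and 0.33 (-0.033 to 0.69). Over 11 settings, the main one included, the ratio of Hlf ranged from 0.18 to 0.50 in set 1. In set 2 it ranged from -0.26 to 0.55, so its sign did not hold there. Procr, Slamf1, Cd34 and Cd48, the genes of surface proteins used to sort HSCs and progenitors, had too few counts to be ranked, and Procr had 18 against 29 and 10 against 7. Of the 28 stem cell genes, 19 were ranked. Among them, 5 were above 0 in both sets and 2 below, while 50.5% of all ranked loci had the same sign. The list gave -0.041 (-0.090 to 0.0081) and 0.072 (0.0097 to 0.13). Genes that rise in old stem cells (29 members, 15 ranked) gave -0.0040 and 0.015. Selp gave -0.061 and 0.044, and Vwf -0.034 and -0.30.

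Spi1 had 177 against 197 counts in set 1 and a log2 ratio of 0.31 (0.0073 to 0.61), but 95 against 185 in set 2 and a ratio of 0.012 (-0.36 to 0.38). The 15 ETS factor genes gave -0.046 (-0.11 to 0.018) in set 1 and 0.085 (0.0091 to 0.16) in set 2. Progenitor genes gave -0.059 and 0.070. Within them, Cdk6, a cell cycle kinase gene, had opposite signs, -0.37 (-0.68 to -0.068) and 0.31 (0.022 to 0.61), and Flt3, a progenitor receptor gene, was close to 0 in both, -0.035 and -0.026. The reference genes gave -0.063 (-0.15 to 0.028) and -0.12 (-0.24 to -0.013), with Gapdh at -0.26 and 0.28 and Actb at -0.0066 and -0.18. The values of Gapdh, a glycolytic enzyme gene, had opposite signs in the sets.

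Markers of other blood and marrow cells were summed as well. Per the study's methods, LT-HSCs were gated as CD34- CD135- LSK cells after staining with antibodies to T cell (CD3, CD4, CD8), B cell (B220), myeloid (CD11b, Gr1) and erythroid (TER-119) antigens, a gate meant to remove mature erythroid, myeloid, B and T cells. Megakaryocyte genes gave -0.043 and 0.048, erythroid genes 0.025 and 0.062, myeloid genes -0.11 and 0.020, B cell genes -0.090 and 0.062, T and NK cell genes 0.023 and -0.10, endothelial genes -0.042 and -0.031, and stromal genes 0.091 and 0.013. Each of these intervals included 0. Several members of these lists, such as Hba-a1, Alas2, Ms4a1, Cd3e and Cd8a, have no peak in the table and so could hold no count. Others were hit often in cells of both kinds. Gata3 was hit in 48.3% of cells with and 45.2% of cells without Wwtr1 counts in set 1 and in 41.8% and 44.7% in set 2, and Ebf1 in 28.6% and 28.6% in set 1 and in 23.8% and 21.6% in set 2. In all 15 lists, 0 of the ranked members were past the fold in both sets, against 0.0478% of all ranked loci in each direction. At so low a share, 0 is no result about the lists. Of the members with too few counts to be ranked, 3 were past it in both sets. These were Yap1, as given above, Vgll2, with 7 against 16 and 1 against 26 counts, and Clec1b, a platelet receptor gene. Clec1b, of the megakaryocyte list, had log2 ratios of 0.69 (0.13 to 1.30) and 0.85 (0.24 to 1.51). Vgll2 and Clec1b were chosen after their values were seen. No share over all loci below the minimum was computed, so these 3 are no result about the lists.

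**Figure D3:**
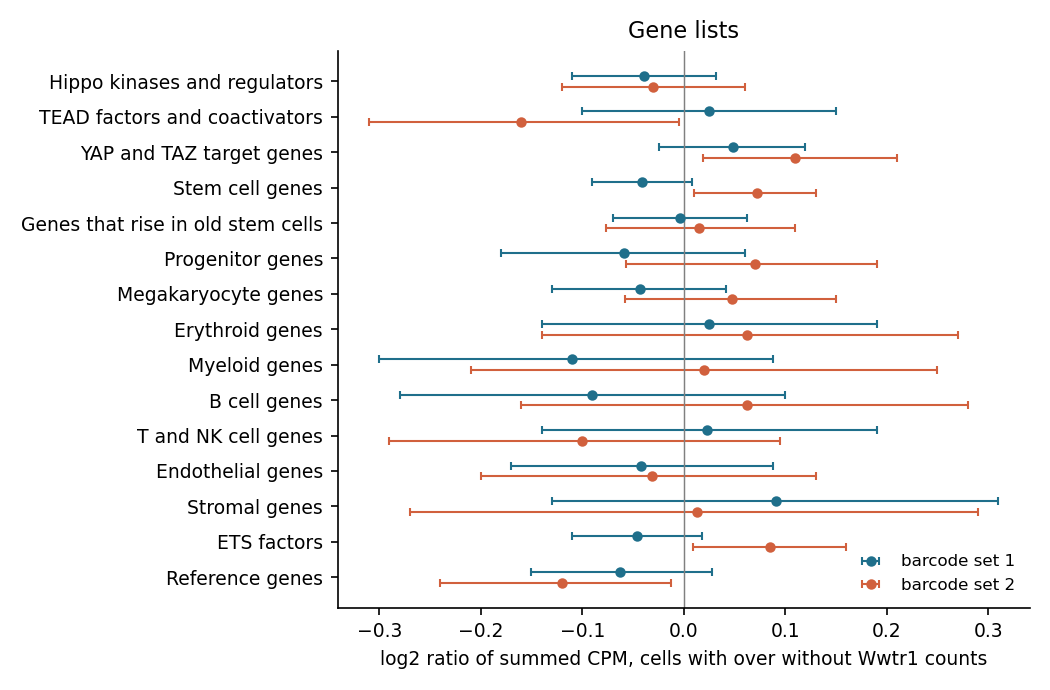
Log2 ratio of summed CPM between cells with and without Wwtr1 counts (x axis) for each of 15 gene lists (y axis) in barcode set 1 and set 2. Points are ratios and bars exact 95% intervals of counting error; the values lie between -0.16 (TEAD factors and coactivators, set 2) and 0.11 (YAP and TAZ target genes, set 2).

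Motif words gave ratios close to 0. Peaks with a TEAD word took 21.4% of the counts of cells with and 21.4% of cells without Wwtr1 counts in set 1, and 20.9% against 21.2% in set 2. The log2 ratios were -0.0031 (-0.0096 to 0.0033) and -0.020 (-0.028 to -0.012). Peaks with the PU.1 word GAGGAAGT, 11.1% of all peaks, gave -0.0044 and 0.00093. Peaks with the word of other ETS factors, CCGGAAGT, 2.71% of all peaks, gave values below 0 in both sets, -0.012 (-0.022 to -0.0019) and -0.057 (-0.069 to -0.044). The same word read backwards gave -0.0058 and -0.028, and promoter counts as a whole gave -0.013 and -0.047. AP-1 words gave 0.0035 and -0.00017, RUNX words 0.00071 and -0.0012, GATA words (AGATAAGA or AGATAAGG, 6.22% of all peaks) -0.0040 and 0.0091, and CTCF words (6.03% of all peaks) -0.011 and -0.018.

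The highest ratios among the chromosomes were those of chromosome 3, which holds Wwtr1. At a fixed depth, a cell with a larger share of its counts on chromosome 3 was more likely to have a Wwtr1 count. The split itself thus favors a higher ratio there, and its part in the values was not tested. The bins, shares and loci of chromosome 3 given below come from the same counts. Peaks of chromosome 3 more than 1000 kb away from Wwtr1, 4912 in number, took 53943 CPM in cells with and 49008 CPM in cells without Wwtr1 counts in set 2, a log2 ratio of 0.14 (0.12 to 0.15). In set 1 the values were 52033 and 50835 CPM, a log2 ratio of 0.034 (0.020 to 0.047). The other 19 chromosomes, the Y chromosome left out, lay between -0.041 and 0.036 in set 2 and between -0.035 and 0.018 in set 1, so that chromosome 3 had the highest ratio of the 20 in each set.

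**Figure D4:**
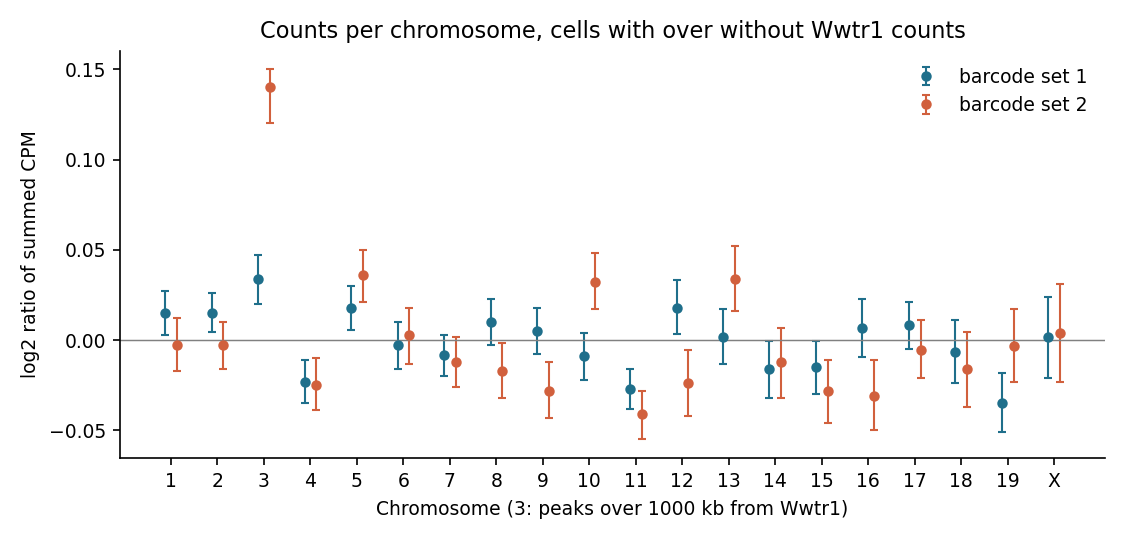
Log2 ratio of summed CPM between cells with and without Wwtr1 counts (y axis) for each chromosome (x axis; chromosome 3 without the peaks within 1000 kb of Wwtr1) in barcode set 1 and set 2. Points are ratios and bars exact 95% intervals of counting error; chromosome 3 is highest in both sets, at 0.034 and 0.14.

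Bins along the whole chromosome were above 0 in set 2, while in set 1 the difference was smaller and most bin intervals included 0. In bins of 10 Mb without the peaks within 1000 kb of Wwtr1, 16 of 16 bins were above 0 in set 2, from 0.039 to 0.28, and 13 of 16 in set 1, from -0.014 to 0.11. The interval of the lowest bin of set 2, at 100 to 110 Mb, also included 0 (-0.0063 to 0.084). The highest value of set 2 was that of the bin around Wwtr1 itself (0.28, 0.22 to 0.34). The bin farthest from the gene, centered 97.5 Mb away, still gave 0.21 (0.14 to 0.28) in set 2 and 0.036 (-0.026 to 0.10) in set 1. Peaks within 100 kb of the gene were few, with 11 peaks and 107 against 107 counts in set 1 and 71 against 112 in set 2. Their log2 ratios were 0.46 (0.063 to 0.86) and 0.32 (-0.13 to 0.76), but that of set 1 was -0.28 with another thinning seed.

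**Figure D5:**
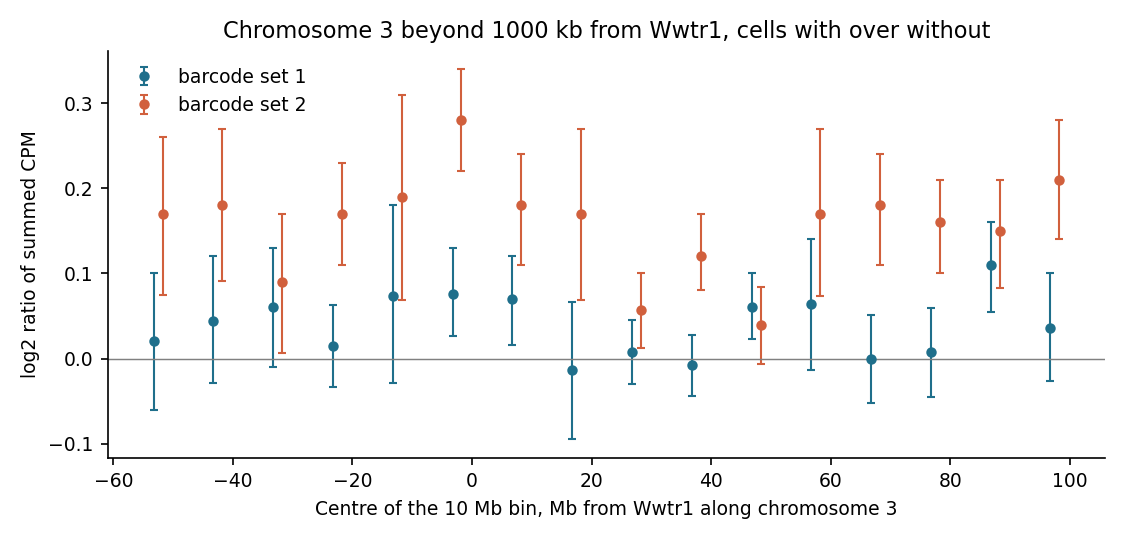
Log2 ratio of summed CPM between cells with and without Wwtr1 counts (y axis) in 10 Mb bins of chromosome 3 by distance of the bin centre from Wwtr1 in Mb (x axis), without peaks within 1000 kb of the gene. Points are ratios and bars exact 95% intervals of counting error; all 16 bins of barcode set 2 and 13 of 16 of set 1 are above 0.

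Per cell, the median and both quartiles of the chromosome 3 share were higher in cells with Wwtr1 counts in each set. Chromosome 3 beyond 1000 kb took a median of 5.19% (quartiles 4.59 to 5.87%) of the counts of a cell with Wwtr1 counts in set 2, against 4.84% (4.34 to 5.41%) of a cell without. In set 1 the medians were 5.13% (4.71 to 5.60%) and 4.98% (4.51 to 5.49%). Ordered by this share and cut into 4 ranges of nearly equal size, the cells of set 2 had Wwtr1 counts in 25.9% (18.8 to 34.0%), 29.1%, 30.7% and 49.3% (40.7 to 57.9%) of cases from the lowest to the highest range. In set 1 the shares were 36.4% (29.5 to 43.7%), 38.0%, 48.7% and 45.2% (38.0 to 52.6%). The share of chromosome 3 varied between cells with a coefficient of variation of 20.0% in set 1 and 26.1% in set 2, so cells differed by more than the counting intervals of the sums convey.

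The share did not increase steadily with the number of Wwtr1 counts. In set 2 its median was 4.84% in the 282 cells without any Wwtr1 count before thinning, 4.88% in the 89 cells whose counts were lost in the draw, 5.19% in cells with 1 count, 5.33% with 2 and 5.05% in the 25 cells with 3 or more. In set 1 the medians were 4.95%, 5.02%, 5.13%, 5.07% and 5.25%.

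A few cells carried part of the value of set 2. One cell with 2 Wwtr1 counts had 26.7% of its counts on chromosome 3, against 12.0% in the next cell with Wwtr1 counts, and without it the log2 ratio of set 2 was 0.11 (0.092 to 0.12). Then 15 of 16 bins of set 2 were above 0, and the lowest was -0.0058. Cells in which any chromosome held over 2 times its median share numbered 39 in set 1 (11 with and 28 without Wwtr1 counts) and 25 in set 2 (5 with and 20 without). Without all of these, chromosome 3 gave 0.084 (0.068 to 0.10) in set 2, with 15 of 16 bins above 0, and 0.041 (0.028 to 0.055) in set 1, with 14 of 16. The other chromosomes then lay between -0.040 and 0.045 in set 2 and between -0.035 and 0.021 in set 1, still below chromosome 3 in each set. Cells with Wwtr1 counts were also slightly deeper and had counts in more peaks, as given above, and the part of these differences in the chromosome 3 values was not tested.

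Gene loci followed the chromosome. Of the 646 ranked loci on chromosome 3, 62.8% were above 0 in set 2, against 44.2% of the loci elsewhere, with medians of 0.080 and -0.040. In set 1 the shares were 55.6% and 47.5%, with medians of 0.032 and -0.013. Chromosome 3 held 5.15% of the ranked loci but 28 of the 175 loci past the fold and higher in set 2 (16.0%) and 10 of the 101 in set 1 (9.90%). Among the loci past the fold and lower, it held 7 of 418 (1.67%) and 1 of 130 (0.769%). The genes next to Wwtr1 were thinly covered. Commd2, 68.4 kb upstream, had 54 against 28 counts in set 1 and 29 against 51 in set 2, with log2 ratios of 1.35 (0.73 to 2.12) and 0.15 (-0.55 to 0.84), and with another seed the value of set 1 was -0.043. Rnf13, a ubiquitin ligase gene and the only neighbor within 250 kb with enough counts to be ranked, gave 0.036 (-0.31 to 0.38) and 0.27 (-0.16 to 0.69). Ankub1 gave -0.23 and 0.53, Tm4sf1 -0.044 and 0.55, and Tm4sf4 had 15 or fewer counts in each set.

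Cells with Wwtr1 counts were not seen to lie next to each other in the space of all other peaks. Of the 30 nearest cells in latent semantic indexing without the region around Wwtr1, 43.4% had Wwtr1 counts for cells with and 42.3% for cells without them in set 1, where 42.1% of all cells had them. In set 2 the values were 31.6% and 30.9%, where 33.8% of all cells had them.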

How the data were processed

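The authors sequenced scATAC-seq libraries of LT-HSCs (10x Genomics) and deposited matrices holding, for each peak, the count in every barcode. Per the submitters' processing notes, Cell Ranger ATAC 1.2.0 was used and mm10 and GRCm38 are named. No normalization of the deposited counts is stated. The second table was used only for its number of cells (1261), since its peaks carry no names. Counts per cell of the first table ranged from 338 to 81621 in barcode set 1 and from 224 to 136173 in set 2. No barcode occurred with both suffixes. No doublet caller was run, and cells of over 3 times the median counts were kept (an alternative left them out).

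Cells were thinned with the multivariate hypergeometric generator of numpy 2.4.6 (seed 1, cells in file order), and 69 cells of set 1 and 76 of set 2 were too shallow. The members, gene lists, motif words and named genes were chosen with earlier results of these data known. Named loci were a fixed list of TAZ pathway, stem cell and reference genes, protein-coding loci past 1.5-fold in both sets, up to 8 per direction, and protein-coding genes within 250 kb of Wwtr1. GENCODE M21 gave the loci. Sequences of the remaining Wwtr1 peaks are not reported here. Ratios are of summed counts over totals without the Wwtr1 peaks, with exact binomial 95% intervals (scipy 1.17.1). For the ratios of the other Wwtr1 peaks, the totals left out the promoter peak alone. Locus ratios add a pseudocount of 1 CPM. Counting was checked on simulated counts drawn independently of each other. The counts of these data come mostly in pairs, so the coverage of the intervals in these data was not checked. Neighbors were found in 20 components with scikit-learn 1.9.0. Alternatives were another seed, 9798 counts per cell, 2 or more Wwtr1 counts, a split by the promoter peak, each peak counted once, all counts of the same cells, peaks outside promoters, other thresholds, and words in the central 300 bp or read backwards. Leaving out cells with an uneven chromosome, or the 1 cell with the most, was chosen after seeing the data.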

Additional observations from a re-analysis of the deposited data

How the results depend on the processing

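No paired analysis was possible because every group had a single sample. The chromosome 3 ratio was above 0 in each of its 11 settings, the main one included, at 0.026 to 0.044 (set 1) and 0.049 to 0.17 (set 2). It was not computed outside promoters. Each setting split the cells by Wwtr1 counts, which itself favors a higher ratio there, so the settings are not independent support. Promoter counts were below 0 in each of their 9 settings, at -0.026 to -0.00037 (set 1) and -0.056 to -0.041 (set 2). They were not computed outside promoters, with each peak counted once or with all counts of the same cells. In set 1 their interval included 0 with another seed (-0.0048 to 0.0034) and at 9798 counts per cell (-0.0037 to 0.0030). In set 2 the chromosome 3 ratio was 0.049 when cells were split by the promoter peak, 0.17 with 2 or more Wwtr1 counts, 0.11 with each peak counted once, 0.12 with all counts of the same cells, 0.087 at 9798 counts per cell, 0.084 without cells with an uneven chromosome and 0.11 without the 1 cell of the highest share. Several other values moved with the draw. With another seed, the peaks within 100 kb gave -0.28 in set 1, the other Wwtr1 peaks 0.17, promoter counts -0.00068, Commd2 -0.043, Cdk6 0.082 and Anxa4 -0.17 in set 1, and, in set 2, TEAD factors and coactivators gave 0.058 and YAP and TAZ target genes -0.0037. At 9798 counts per cell, 59.5% of cells in set 1 and 45.0% in set 2 had Wwtr1 counts, and peaks per cell rose to medians of 5944 with and 5775 without (set 1) and 6040 and 5890 (set 2). In set 1, promoter counts then gave -0.00037, the other Wwtr1 peaks 0.27, the peaks within 100 kb -0.0012, PU.1 words -0.012, Tead1 -0.0040, Ccn2 -0.16, Spi1 -0.081, Lats1 0.26, Amotl2 0.13, Arap3 0.018 and Apba3 0.13. In set 2, promoter counts gave -0.056, TEAD factors and coactivators 0.029, ETS factors -0.027, Tead1 -0.28 and Anxa4 -0.27. With 2 or more Wwtr1 counts, promoter counts gave -0.026 and Amotl2 0.052 in set 1, and ETS factors -0.028 and PU.1 words -0.013 in set 2. When split by the promoter peak, promoter counts gave -0.0081 and -0.041, and, in set 1, YAP and TAZ target genes -0.027, Lats1 0.031 and Stxbp3 -0.49. Outside promoters, words of other ETS factors gave 0.021 and Spi1 -0.086 in set 1, and TEAD words -0.033 in set 2. In the central 300 bp, PU.1 words gave 0.0088 and 0.051 and TEAD words 0.022 and 0.025, and PU.1 words read backwards gave -0.011 in set 2. The 6 higher and 6 lower loci became 0 and 0 with at least 200 counts, 51 and 65 with at least 30, 120 and 199 at a lower fold (log2 of 0.32), 0 and 0 at a fold of 2, and 0 and 2 with a pseudocount of 5 CPM. The higher loci numbered 1 with another seed, 1 outside promoters and 2 without uneven cells; counting each peak once left 1 and 0, and 2 or more Wwtr1 counts gave 46 lower. The gene body alone gave the same 16 peaks, so this setting, counted among the 11 and the 9 above, repeats the main one. The causes of these changes were not tested.

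Most cells were placed by 1 or 2 counts, and 74.6% and 72.5% of those with Wwtr1 counts had them in a second draw. The table is 1 pooled sample per sorted group, and its barcode sets could not be matched to those groups. At single loci, which hold few counts, the draw alone turned the direction of several values, so ratios of this size were not resolved at this depth.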
